A study of Mus musculus with 78 samples.

Results

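The genes described here are the 10 whose levels differed most clearly, after Acss2 itself, between male mice lacking ACSS2 and male wild-type mice in the ventral striatum. They are Nrip3, Klhdc8a, Nefh, Ankrd34b, Steap2, Fam131a, Fstl5, Ralyl, Septin5 and Frmpd1, 10 of the 55367 gene symbols listed. They were chosen by their small unadjusted p in that comparison (KO mice 1, 2 and 10 against WT mice 3, 12 and 13), so their values there are a description and carry no test. In a refit with edgeR, Acss2 ranked 1 and the listed genes ranked 2 to 10 and 12 of 13623 genes. Rank 11 was held by Pappa, which is not among the listed genes and had 1 to 35 counts per library. Just outside the list were Kcnh2 at rank 13 (log2 difference of -0.74), St8sia1 at rank 14 (-0.67) and A330074K22Rik at rank 15 (-1.72), and just inside was Frmpd1 (-1.20). The tests of these genes that can be read as such use the female mice, the other 6 brain regions or the levels by region in females. Male tests of ventral striatum against other regions include the libraries that chose the genes, and are read with that limit. Every other value from the male ventral striatum, calls included, is a description.

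The series holds poly(A) RNA-seq from 12 mice of the C57BL6/J strain, read in 78 libraries from amygdala, cortex, dorsal and ventral hippocampus, prefrontal cortex, and dorsal and ventral striatum, and asks how loss of ACSS2 bears on alcohol drinking. KO mice carried a constitutive deletion of exons 3 to 7 of Acss2, made by CRISPR/Cas9 in embryos and backcrossed for 3 generations, so it is not limited to the brain or to a cell type, and WT mice did not carry it. All mice, of both genotypes, were adults that had drunk 15% ethanol in the drinking-in-the-dark paradigm (DiD 2BC + 1B, with a choice of bottles and then ethanol alone), so a response to ethanol itself cannot be read from these libraries. By number, the KO group held males 1, 2 and 10 with females 4, 5 and 6, and the WT group held males 3, 12 and 13 with females 11, 23 and 24. Each region had 3 mice per sex and genotype, except 2 WT females in amygdala, cortex and prefrontal cortex, and 1 KO and 2 WT males in prefrontal cortex. Each sample is a piece of tissue, so fewer cells of a type and less RNA per cell cannot be told apart.

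ACSS2 makes acetyl-CoA from acetate, which the body produces when it breaks down ethanol, and part of that acetyl-CoA is used in the nucleus to acetylate histones. The ventral striatum, with the nucleus accumbens, takes part in reward and in the drive to drink, and most of its neurons are inhibitory projection neurons that carry dopamine receptors. The listed genes form no single pathway: they encode an axonal filament (Nefh), a presynaptic septin (Septin5), a secreted follistatin-like protein (Fstl5), an RNA-binding protein (Ralyl), a metal reductase (Steap2) and several adaptor or little-studied proteins.

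The RefSeq promoter table for GRCm38.p6 held windows before the start of 6 of the 10 genes, 9 windows in all. To show the sequence before the start of genes that were lower in male KO mice, 4 windows are given here, from 4 of those 8 genes, as the bases before any exon of the gene in GENCODE M21. They are Klhdc8a at chr1:132298376-132298625 (plus strand), Ankrd34b at chr13:92425719-92425895 (plus), Steap2 at chr5:5694579-5694818 (minus) and Frmpd1 at chr4:45184656-45184874 (plus). Capitals mark the motifs searched on both strands.
Klhdc8a: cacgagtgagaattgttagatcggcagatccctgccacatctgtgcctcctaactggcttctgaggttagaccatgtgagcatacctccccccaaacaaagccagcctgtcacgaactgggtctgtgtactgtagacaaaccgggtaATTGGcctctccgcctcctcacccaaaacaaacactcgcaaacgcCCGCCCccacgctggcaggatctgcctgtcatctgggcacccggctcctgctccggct
Ankrd34b: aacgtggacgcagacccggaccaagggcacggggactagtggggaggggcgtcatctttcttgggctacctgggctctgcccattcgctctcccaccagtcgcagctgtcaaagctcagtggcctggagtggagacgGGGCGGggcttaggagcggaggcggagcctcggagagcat
Steap2: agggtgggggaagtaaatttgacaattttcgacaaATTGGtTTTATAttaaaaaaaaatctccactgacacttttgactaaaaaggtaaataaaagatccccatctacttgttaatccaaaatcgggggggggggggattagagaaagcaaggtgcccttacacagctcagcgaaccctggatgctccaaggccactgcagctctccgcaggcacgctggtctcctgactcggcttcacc
Frmpd1: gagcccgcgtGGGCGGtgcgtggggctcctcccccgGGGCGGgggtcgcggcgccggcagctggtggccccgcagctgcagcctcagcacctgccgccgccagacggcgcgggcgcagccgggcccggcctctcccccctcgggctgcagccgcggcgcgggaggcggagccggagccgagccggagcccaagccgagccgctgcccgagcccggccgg

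The motifs searched were the TATA box (TATAAA), the GC box (GGGCGG), the E-box (CACGTG), the CRE (TGACGTCA) and the CCAAT box (CCAAT), none of which contains another. Over whole windows of 250 bases, the GC box was found in 5 of the 9 windows, against 32.7% of all 32851 windows of that length. The CCAAT box was found in 3 of the 9 (33.8% of all windows) and the TATA box in 2 (12.4%). Neither the E-box (6.02% of all windows) nor the CRE (1.55%) was in any of the 9 windows. The shown stretches ranged widely in base composition, from 46.7% G and C for Steap2 to 84.0% for Frmpd1, against a median of 52.4% over all windows. A match is a match of letters only, and no binding was measured. Windows for Nrip3, Nefh, Ralyl and Septin5 were not used here.

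On the GRCm38 build, with positions from GENCODE M21, the genes were Nrip3 at chr7:109758055-109782025, Klhdc8a at chr1:132298626-132307357, Nefh at chr11:4938754-4948064, Ankrd34b at chr13:92425896-92441658 and Steap2 at chr5:5664829-5694578. The others are Fam131a at chr16:20693241-20703048, Fstl5 at chr3:76074270-76710019, Ralyl at chr3:13471655-14182287, Septin5 (listed there as Sept5) at chr16:18620502-18629954 and Frmpd1 at chr4:45184875-45285936. All 10 are protein-coding, with exons of 2899 bases in all for Fam131a to 12144 for Steap2. That is longer than 71.8% to 98.3% of annotated genes of every type, noncoding ones included. Their place among protein-coding genes alone was not computed. The library kit did not mark strand, so reads of overlapping genes cannot be told apart. In GENCODE M21 the spans of 7 of the 10 overlap another gene. These are Ankrd34b with the antisense gene C030017D09Rik, Frmpd1 with Frmpd1os, Fam131a with Clcn2, Septin5 with Gp1bb and Gm49601, Nrip3 with Gm22822, Fstl5 with Gm37897, and Ralyl with the lincRNA Gm2464 and several small RNAs and pseudogenes.

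Total counts were 5227813 to 6203967 in the 12 ventral striatum libraries, 4454420 to 14487778 in 47 libraries when the amygdala, dorsal hippocampus and dorsal striatum are added, and 629635 to 1228828 in the 31 libraries of the other regions. Values are CPM, the count of a gene over the total of its library, scaled to a common library size. A count of 3, taken as the floor, was 0.484 to 0.574 CPM in ventral striatum and 2.44 to 4.76 CPM in the shallower regions, and every member lay above it in every library. Acss2 was at 0.971 to 13.96 CPM in the 40 KO libraries and at 35.9 to 73.8 CPM in the 38 WT libraries, which do not overlap. Some libraries stood apart from their labels. Summed CPM of 10 genes of striatal projection neurons was 438 in dorsal striatum of female WT mouse 23 and 608 in that of male KO mouse 10, against 5398 to 11056 in the other 10 dorsal striatum libraries. In ventral striatum the sum was 759 in male WT mouse 13, 1389 in male KO mouse 10 and 2197 in female WT mouse 11, against 4213 to 10949.7 in the other 9. The prefrontal cortex library labelled female WT mouse 23 had 0 counts of Xist and 60 of Ddx3y, which goes against its sex label.

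In the male ventral striatum, 8 of the 10 genes were lower and 2 were higher in KO mice, and for each the 3 KO and 3 WT libraries did not overlap. The choice fixes this, and 9.7% of all genes were apart and lower in KO and 6.24% apart and higher. None reached an adjusted p under 0.05 with edgeR (0 of 13623 genes did, 0%, with 1341 or 9.84% at an unadjusted p under 0.05). The DESeq2 Wald test put all 10 under it, among 49 genes, and the fit with no filter on low counts 9, among 77 genes. The same values chose the genes, so these calls support nothing about them. The deleted gene Acss2 itself had an adjusted p of 0.0888 with edgeR in these libraries. Values below are in the order of KO mice 1, 2 and 10 and WT mice 3, 12 and 13.

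Nefh encodes the heavy neurofilament subunit of thick myelinated axons. Its level was 67.6, 46.8 and 55.5 CPM in KO mice and 124, 115 and 124 CPM in WT mice, a log2 difference of -1.06 ± 0.15 (SE). Septin5, a septin that binds the synaptic vesicle fusion protein syntaxin, went the other way. It was at 55.5, 43.1 and 46.7 CPM in KO mice and 30.5, 26.97 and 26.9 CPM in WT mice (0.81 ± 0.14), and each KO library lay above each WT library.

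Nrip3, named as a nuclear receptor interacting protein, had the smallest p of the list and the second largest difference. It was at 75.4, 71.8 and 84.8 CPM in KO mice and 157, 195 and 210.2 CPM in WT mice (-1.25 ± 0.15). Ralyl, an RNA-binding protein related to RALY and hnRNP C, was at 59.2, 52.4 and 58.1 CPM in KO mice and 85.8, 106 and 103 CPM in WT mice. Its log2 difference of -0.76 ± 0.13 was the smallest of the 8 that were lower.

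Steap2 reduces iron and copper ions at membranes. It was at 22.6, 14.6 and 18.9 CPM in KO mice and 40.8, 40.9 and 44.5 CPM in WT mice (-1.14 ± 0.17), and its WT libraries lay close together. Fstl5, a secreted follistatin-like protein, had the largest difference, -1.28 ± 0.21. It was at 28.3, 24.2 and 27.2 CPM in KO mice and 46.4, 73.6 and 78.0 CPM in WT mice, with WT mouse 3 lying between the KO libraries and the other WT libraries.

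Klhdc8a, a kelch domain protein, was at 19.03, 12.96 and 16.1 CPM in KO mice and 38.8, 37.9 and 36.8 CPM in WT mice (-1.21 ± 0.16). Ankrd34b, an ankyrin repeat protein, was at 31.7, 30.2 and 27.3 CPM in KO mice and 54.6, 61.8 and 63.8 CPM in WT mice (-0.98 ± 0.14). For both genes the WT libraries lay close together and above every KO library. Frmpd1, a FERM and PDZ domain protein that binds the G-protein regulators GPSM1 and GPSM2, was the least abundant, at 6.58, 6.29 and 8.48 CPM in KO mice and 13.5, 17.98 and 18.9 CPM in WT mice (-1.20 ± 0.22). Fam131a, whose function is little known, was the other gene that was higher in KO mice. Its level was 138, 167 and 165 CPM in KO mice and 93.7, 81.5 and 76.7 CPM in WT mice (0.93 ± 0.15).

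**Figure D1:**
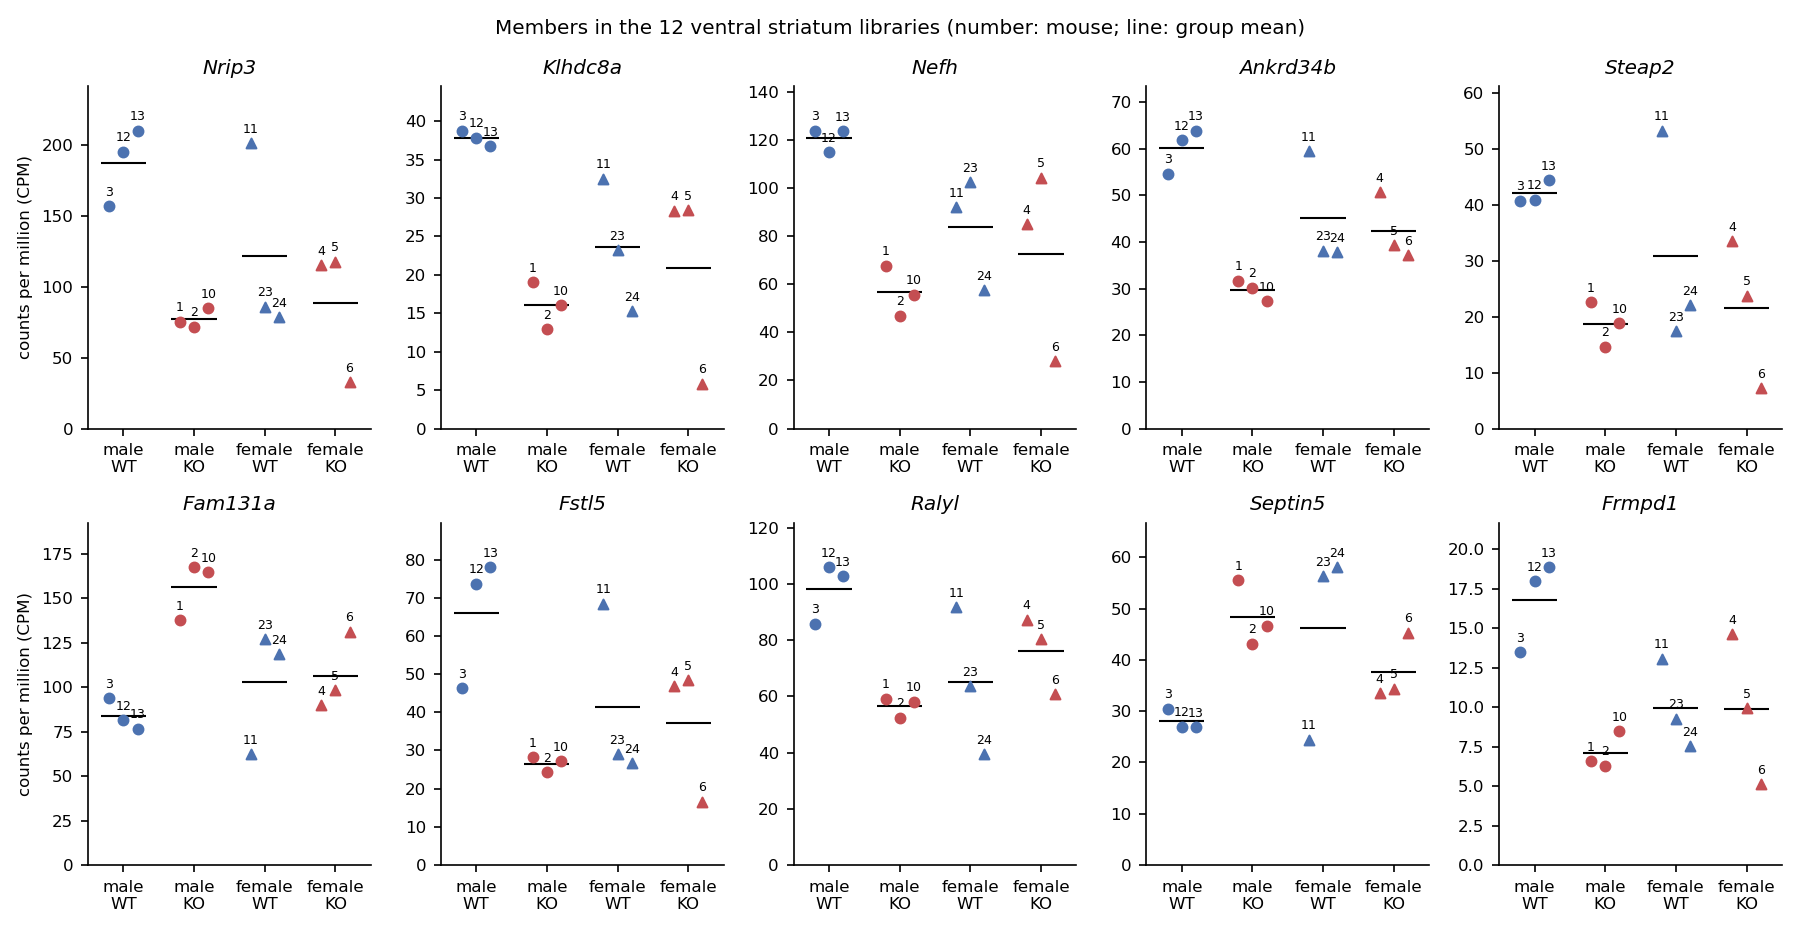
CPM of the 10 genes in the 12 ventral striatum libraries, by sex and genotype (red, KO; blue, WT; circles, male; triangles, female; number, mouse; line, mean of 3 mice). The male groups are apart for every gene, which is how the genes were chosen, while the female groups overlap for every gene and female KO mouse 6 and female WT mice 11 and 24 often hold the extremes.

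Per kilobase of exon, the WT male ventral striatum had most of Nrip3 (46.7 ± 6.87 CPM per kb, SD, n = 3), then Nefh (30.2 ± 1.29), Fam131a (28.97 ± 3.03) and Ralyl (26.7 ± 2.95), and least of Frmpd1 (3.15 ± 0.541) and Steap2 (3.46 ± 0.172). In KO males Fam131a was the highest on this scale, at 54.0 ± 5.72 CPM per kb, above Nrip3 at 19.3 ± 1.66.

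In the male ventral striatum, 2 of the 6 libraries were low in striatal projection neuron transcripts, 1 of each genotype (KO mouse 10 and WT mouse 13). The choice leaves KO and WT apart for all 10 genes, so their directions without these libraries are fixed and say nothing of striatal content. Without both, 1 of the 10 genes was among the 11 smallest p after Acss2, where 10 had been. Of 12 marker lists, 11 had summed levels that overlapped between KO and WT males. The exception was a list of 4 genes of subcortical glutamatergic neurons (Slc17a6, Tcf7l2, Lhx9 and Ramp3), at 49.6, 31.3 and 67.5 CPM in KO mice and 75.2, 119 and 533 CPM in WT mice. Of its genes, only Tcf7l2 was apart by itself, at 5.18 to 17.4 CPM in KO mice and 20.5 to 141 CPM in WT mice. Slc17a6, Lhx9 and Ramp3 overlapped. Ramp3 was at 4.98, 9.81 and 8.30 CPM in KO mice and 6.41, 2.10 and 24.98 CPM in WT mice. The part of these neurons in the differences was not tested in males.

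The female ventral striatum is the same measure in mice that played no part in the choice. None of the 10 genes passed a test of KO against WT there, and for none were the KO and WT libraries apart (2.21% of all genes were apart and lower in KO, 5.33% apart and higher). With edgeR 0 of 10 had an adjusted p under 0.05 (0% of all 13605 genes did) and 0 of 10 had an unadjusted p under 0.05 (2.13% of all genes did). The DESeq2 Wald test and the fit without a filter called 0 as well. With edgeR the deleted gene Acss2 was not called here either, so an absent call does not show that a gene is unchanged. By direction 8 of 10 were lower in KO females, against 54.6% of all genes, with a median log2 difference of -0.20 for the 10 genes and -0.02 for all. The 2 differences farthest from 0 were those of Steap2 (-0.56 ± 0.54) and Nrip3 (-0.49 ± 0.49), each about as large as its SE.

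That lean depended on single libraries. Without KO mouse 6, 5 of 10 genes were lower in KO females and the median was 0.03. Without WT mouse 11, the female library lowest in striatal projection neuron transcripts, 3 of 10 genes were lower in KO females and the median was 0.06. The differences then ran from -0.65 for Septin5 to 0.51 for Ralyl, and the lowest adjusted p was 0.841. Septin5, higher in male KO mice, was lower in female KO mice with and without that library (-0.35 ± 0.34 with it).

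The female libraries of 1 genotype spread widely. Nrip3, in the order of KO mice 4, 5 and 6 and WT mice 11, 23 and 24, was at 115, 118 and 32.6 CPM and at 201, 86.0 and 78.5 CPM. Steap2 was at 33.5, 23.7 and 7.25 CPM and at 53.3, 17.4 and 22.05 CPM. With both genotypes together, the highest female library was 7.35 times the lowest for Steap2 and 6.19 times for Nrip3, and the male ratios were 3.04 and 2.93. The female ratio was the smaller for Ankrd34b (1.60 against 2.34), Fam131a (2.11 against 2.18) and Frmpd1 (2.85 against 3.00). The choice by small p favours a small spread within each male genotype, so nothing is read from the male ratios being smaller. Fstl5 was at 46.8, 48.3 and 16.6 CPM in KO females and at 68.4, 29.05 and 26.7 CPM in WT females, again with mouse 6 lowest and mouse 11 highest. Fam131a and Septin5 were lowest in mouse 11. Fam131a was at 89.9, 98.2 and 131 CPM in KO females and at 62.2, 127 and 119 CPM in WT females, and Septin5 at 33.5, 34.4 and 45.3 CPM and at 24.4, 56.3 and 58.1 CPM.

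Set beside the male means, the female libraries fell on both sides irrespective of genotype. WT mouse 11 was nearer the male WT mean for 10 of 10 genes and KO mouse 4 for 9 of 10. KO mouse 6 and WT mouse 24 were nearer the male KO mean for 10 of 10, WT mouse 23 for 9, and KO mouse 5 for 4. Each genotype thus had females on either side. Klhdc8a ran from 5.84 CPM in KO mouse 6 to 32.5 CPM in WT mouse 11. Nefh ran from 27.95 CPM in KO mouse 6 to 104 CPM in KO mouse 5. Ankrd34b, the steadiest, ran from 37.2 to 59.5 CPM, and Ralyl from 39.4 CPM in WT mouse 24 to 91.8 CPM in WT mouse 11. Frmpd1 ran from 5.13 CPM in KO mouse 6 to 14.6 CPM in KO mouse 4.

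Across the other 12 comparisons of KO and WT that could be tested (female ventral striatum, both sexes of 5 regions and the female prefrontal cortex), 118 tests of the 10 genes were made. With edgeR none had an adjusted p under 0.05, the lowest being 0.356, and the DESeq2 Wald test called 0. With no filter on low counts edgeR called 2, Septin5 in male dorsal hippocampus (adjusted p = 0.0429) and Nrip3 in female ventral hippocampus (adjusted p = 0.0269). With the filter that Nrip3 difference was -0.71 ± 0.33, and it was -0.43 without KO mouse 6, whose library stood apart in striatal transcripts, and -0.37 without WT mouse 24. An unadjusted p under 0.05 was reached in 10 tests, 8.47%, against 4.04% of all genes in the same comparisons. Fstl5 was too low to be tested in the cortex of either sex. In males these libraries come from the same mice as those that chose the genes. The shares of all genes at an adjusted p under 0.05 were 0% in dorsal striatum of both sexes and in female amygdala, 0.00706% in male amygdala, 0.00721% and 0.00707% in male and female dorsal hippocampus, 0.0103% and 0.0398% in male and female cortex, 0.00996% and 0.00993% in male and female ventral hippocampus, and 0.452% in female prefrontal cortex. Where the share was 0%, the deleted gene Acss2 was not called either, so absent calls there do not show absent changes.

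In the dorsal striatum, the nearest tissue, no gene of the list was at an unadjusted p under 0.05 in males, where 1.91% of all genes were. Nefh was at 25.4, 44.4 and 146 CPM in male KO mice 1, 2 and 10 and at 39.5, 28.9 and 76.3 CPM in WT mice 3, 12 and 13. The high library was that of KO mouse 10, which was low in striatal projection neuron transcripts, and without it the log2 difference went from 0.62 ± 0.65 to -0.42. Over the 10 genes, 4 were lower in KO males with that library and 6 without it. In females 1 gene had an unadjusted p under 0.05, where 2.25% of all genes did. Steap2 was at 21.8, 33.5 and 40.6 CPM in KO mice 4, 5 and 6 and at 22.1, 16.9 and 18.6 CPM in WT mice 11, 23 and 24 (0.73 ± 0.24, adjusted p = 0.919 in edgeR), opposite in sign to the male ventral striatum. Without WT mouse 23, the library lowest in striatal transcripts, that difference was 0.66, and that of Fam131a went from -0.77 to 0.0049. In neither sex were KO and WT apart for any of the 10, while 4.66% of all genes were apart and lower in KO and 1.91% apart and higher in males, and 3.74% and 3.81% in females.

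In the amygdala, Steap2 was at 12.6, 7.85 and 9.54 CPM in male KO mice 1, 2 and 10 and at 18.8, 29.3 and 12.2 CPM in WT mice 3, 12 and 13 (-0.95 ± 0.32, adjusted p = 0.903 in edgeR), with the ranges overlapping. It was the only gene of the list at an unadjusted p under 0.05 in that comparison, where 2.85% of all genes were. Female amygdala had none (2.97% of all genes). The largest female difference was that of Nrip3, at 238, 314 and 97.2 CPM in KO mice 4, 5 and 6 and at 112 and 99.6 CPM in WT mice 23 and 24 (0.99 ± 0.48). None of the 10 was apart in amygdala, against 6.08% of all genes that were apart and lower and 2.9% that were apart and higher in male KO, and 5.78% and 10.7% in female KO. In female amygdala the summed level of 5 interneuron genes was lower in KO (328 to 414 against 439 to 485 CPM). That of 5 cholinergic genes was higher (19.3 to 21.3 against 2.40 to 17.3 CPM). The part of either list was not tested.

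In the male dorsal hippocampus 3 genes had an unadjusted p under 0.05, against 3.53% of all genes, and the 3 kept the direction of the male ventral striatum. Klhdc8a was at 6.86, 3.93 and 8.19 CPM in KO mice 1, 2 and 10 and at 15.0, 9.57 and 11.1 CPM in WT mice 3, 12 and 13 (-0.87 ± 0.27). Steap2 was at 11.7, 8.13 and 4.47 CPM and at 17.8, 12.9 and 11.8 CPM (-0.75 ± 0.30). For both, KO and WT libraries did not overlap, as for 5.7% of all genes that were lower in KO. Septin5 was at 76.0, 66.5 and 85.5 CPM in KO mice and at 41.9, 70.8 and 44.4 CPM in WT mice (0.58 ± 0.20), with WT mouse 12 within the KO range. All 3 had an adjusted p of 0.999 in edgeR.

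The female dorsal hippocampus had no gene of the list at an unadjusted p under 0.05, where 1.93% of all genes were, and 1 library set most of its differences. In WT mouse 23 Steap2 was at 61.9 CPM and Nefh at 266 CPM, against at most 17.2 and 109 CPM in the other 5 libraries. Without that library Steap2 went from -0.86 to 0.89, Klhdc8a from 0.16 to 1.96 and Ankrd34b from 0.40 to 1.02, with adjusted p-values of 0.180, 0.0760 and 0.0684 in edgeR. With mouse 23 included, the summed level of 8 astrocyte genes was higher in KO (4444 to 5105 against 3821 to 4283 CPM). So was that of 6 microglia genes (332 to 387 against 285 to 325 CPM). The part of either list was not tested.

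In the ventral hippocampus, Nefh differed in opposite directions in the 2 sexes. In males it was at 63.3, 73.8 and 80.4 CPM in KO mice 1, 2 and 10 and at 50.8, 47.4 and 50.6 CPM in WT mice 3, 12 and 13 (0.51 ± 0.19, adjusted p = 0.568 in edgeR). In females it was at 44.3, 30.1 and 40.5 CPM in KO mice 4, 5 and 6 and at 49.1, 92.8 and 55.1 CPM in WT mice 11, 23 and 24 (-0.74 ± 0.27, adjusted p = 0.996 in edgeR). In neither sex did KO and WT overlap, as for 7.21% of all genes that were higher in male KO and 6% that were lower in female KO. Nefh was the only listed gene at an unadjusted p under 0.05 in either comparison, where 8.08% of all genes were in males and 3.93% in females. In males the summed level of 8 oligodendrocyte genes was also apart, at 5395 to 6750 CPM in KO and 2527 to 4008 CPM in WT, and in females that of 5 interneuron genes was, at 247 to 250.2 CPM in KO and 276 to 378 CPM in WT, as was that of 3 oligodendrocyte precursor genes, at 91.9 to 117 CPM in KO and 125 to 146 CPM in WT. The striatal list summed to 4930 CPM in female KO mouse 6, against 342 to 403 CPM in the other 5 libraries, and without that mouse the female Nefh difference was -0.83. Their part in the Nefh differences was not tested.

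The cortex and the prefrontal cortex added 3 more differences at an unadjusted p under 0.05. Ankrd34b was at 17.7, 25.6 and 13.2 CPM in cortex of female KO mice 4, 5 and 6 and at 28.4 and 34.05 CPM in WT mice 11 and 24 (-0.75 ± 0.33, adjusted p = 0.433 in edgeR), in a comparison where 10.6% of all genes passed the same mark. Ankrd34b and Ralyl were apart and lower in KO there, as were 13.8% of all genes, and the summed level of 3 oligodendrocyte precursor genes was at 70.4 to 76.9 CPM in KO and 77.5 to 99.8 CPM in WT. That of 5 choroid plexus genes was at 13.2 to 1127 CPM in KO and 7.75 to 11.7 CPM in WT, and the part of either list was not tested. In male cortex none of the 9 genes tested had an unadjusted p under 0.05 (2.95% of all genes did). The summed level of 8 oligodendrocyte genes was higher in KO there (3097 to 4955 against 2780 to 2997 CPM), and its part was not tested. In the female prefrontal cortex 9.08% of all genes had an unadjusted p under 0.05. Fstl5 was at 27.5, 28.4 and 28.5 CPM in KO mice there and at 41.6 and 45.3 CPM in WT mice 11 and 23. Its log2 difference was -0.64 ± 0.23 and its adjusted p 0.356 in edgeR. Klhdc8a was at 13.7, 15.1 and 15.5 CPM in KO mice and at 28.6 and 22.03 CPM in WT mice there (-0.81 ± 0.31). These 2 and Steap2 were apart and lower in KO, as were 10.6% of all genes. Without the library whose Xist and Ddx3y counts go against its label the values were -0.60 and -0.98. In that region the oligodendrocyte list was at 7099 to 11628 CPM in KO females and 1779 to 3391 CPM in WT females, and the striatal list at 950 to 2655 against 437 to 613 CPM. There 5 general neuronal genes were lower in KO (4520 to 5197 against 5299 to 5303 CPM), as were 4 endothelial genes (151 to 175 against 197 to 239 CPM). Oligodendrocyte precursor genes (145 to 160 against 129.8 to 142 CPM) and choroid plexus genes (11.4 to 25.7 against 8.57 to 8.98 CPM) were higher. Their part in the differences was not tested.

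The male prefrontal cortex had 1 KO library and gave no test. Nrip3 was at 120.3 CPM there in KO mouse 1 and at 438 and 161 CPM in WT mice 3 and 12, and Steap2 at 4.39 CPM against 49.1 and 14.8 CPM. A lone KO library lies outside 2 WT libraries for many genes, 31.5% of all on the low side and 31.4% on the high side, and for all 10 listed here. With a single KO library no spread can be given for that group.

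**Figure D2:**
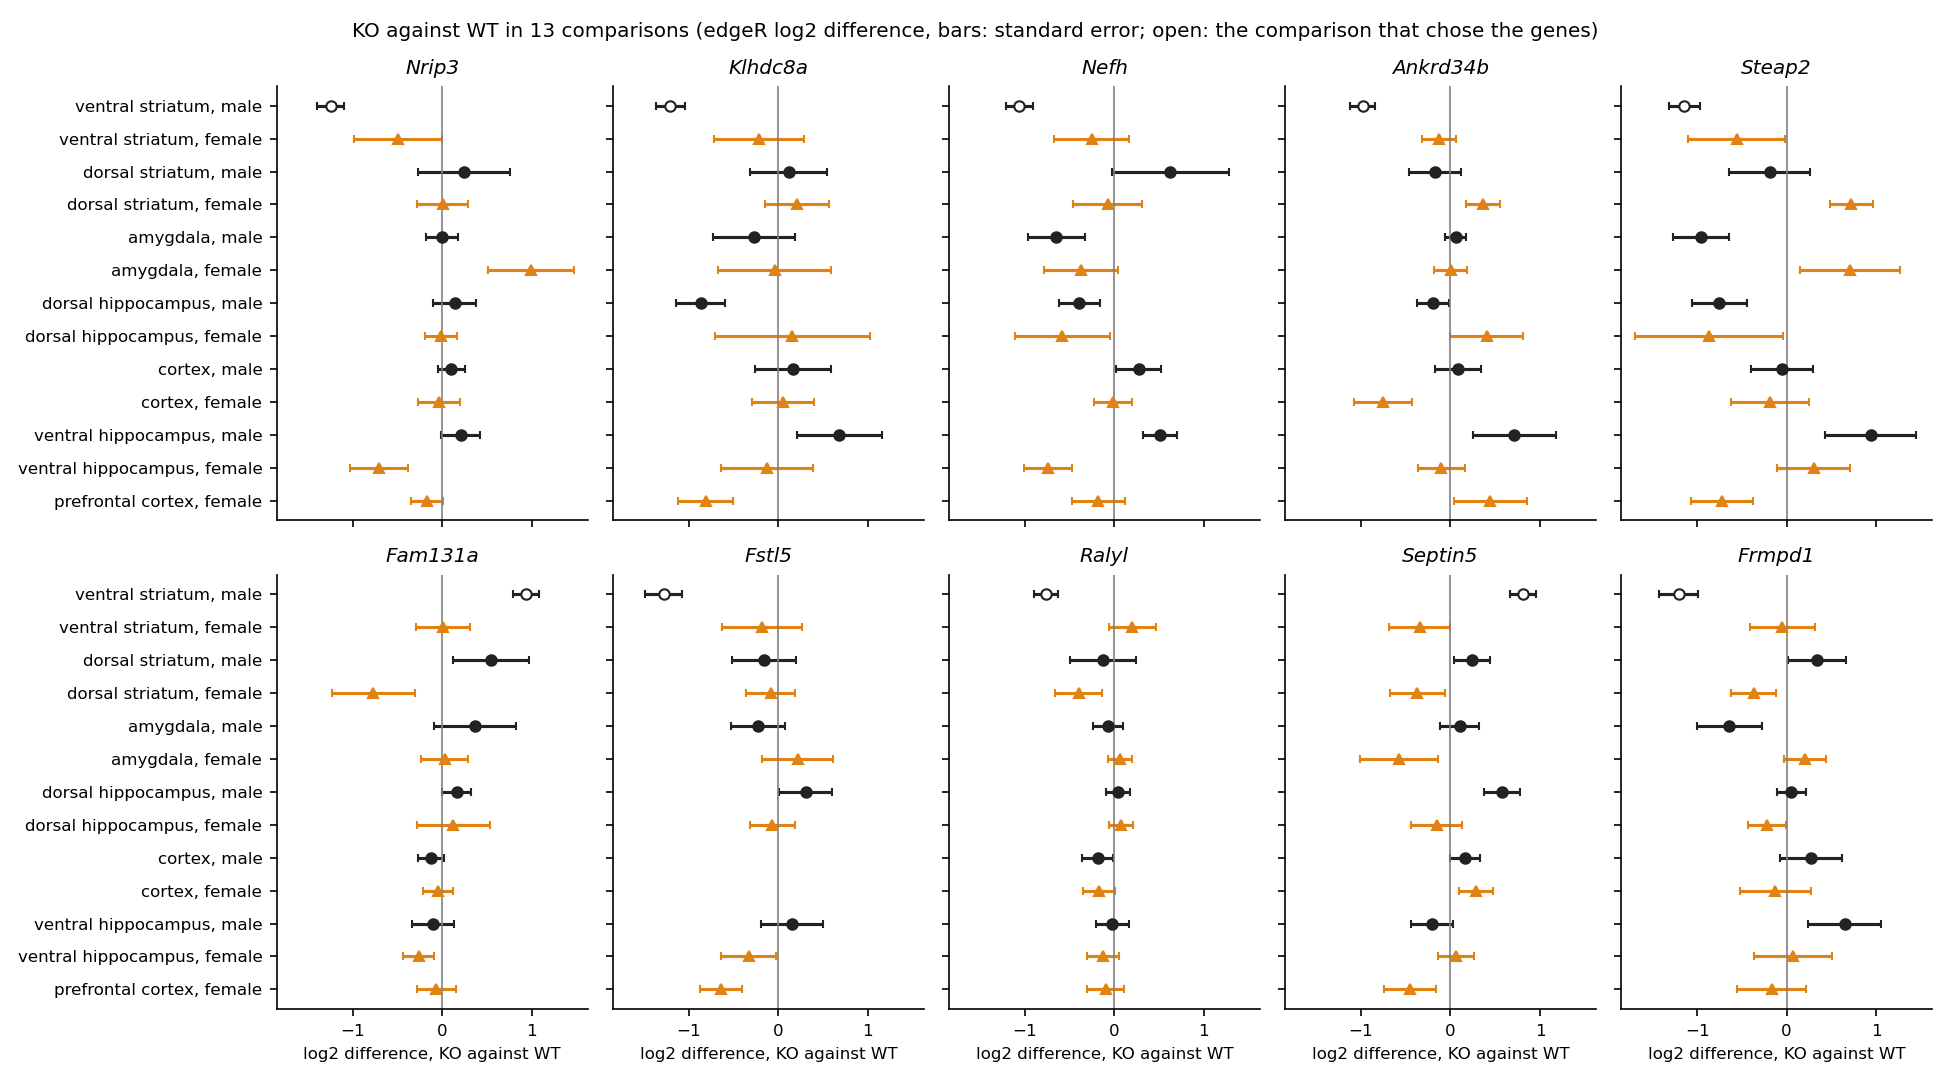
Log2 difference of KO against WT for each gene in 13 comparisons, from edgeR fits of 1 region and 1 sex each, with the SE as bars (black circles, male; orange triangles, female; open circle, the male ventral striatum that chose the genes; Fstl5 has no value in cortex). Outside the open circles the points scatter on both sides of 0, from -0.95 for Steap2 in male amygdala to 0.99 for Nrip3 in female amygdala.

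The level of each gene by region was not used by the choice. In the ventral striatum 3 genes had their highest mean of the 7 regions in both tables, Ankrd34b, Steap2 and Fstl5, and 2 had their lowest, Fam131a and Septin5. The first 3 are among the genes lower in KO males, and the last 2 are the genes higher in KO males. Neighbours in these orders often did not differ beyond their spread. Of 6 steps between neighbouring regions, 0 to 2 were larger than the larger SD, whichever gene and table was taken. Cortex, ventral hippocampus and prefrontal cortex were read less deeply, and their levels are given as values only.

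Ankrd34b was at 44.9 ± 16.96 CPM (SD, n = 6) in ventral striatum of the male table, then 39.996 ± 2.72 in amygdala, 28.1 ± 8.92 in dorsal striatum, 27.5 ± 4.77 in cortex, 27.1 ± 16.4 in ventral hippocampus, 26.5 ± 11.3 in prefrontal cortex and 20.1 ± 3.57 in dorsal hippocampus. In the female table the order began with ventral striatum (43.7 ± 9.22 CPM) and amygdala (34.1 ± 5.44) and ended with prefrontal cortex (20.4 ± 7.29). The step from ventral striatum to amygdala exceeded the SD in females, and that from amygdala to dorsal striatum in males.

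Fstl5 was at 46.3 ± 24.2 CPM in ventral striatum and 46.2 ± 14.9 in amygdala of males, which is no difference beyond the spread, and at 21.2 ± 6.71 in dorsal striatum, 18.4 ± 6.09 in dorsal hippocampus and 10.1 ± 4.09 in cortex. Its female means ran the same way at both ends, from 39.3 ± 18.8 CPM in ventral striatum to 8.32 ± 2.52 in cortex, a ratio of 4.73. Steap2 was at 30.4 ± 13.1 CPM in male ventral striatum and 11.1 ± 4.52 in dorsal hippocampus. In females it was at 26.2 ± 15.8 CPM in ventral striatum, 25.6 ± 9.35 in dorsal striatum and 11.9 ± 3.69 in ventral hippocampus, and no step between neighbours exceeded the SD in either table.

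Fam131a had highest over lowest means of 4.26 in males and 3.89 in females. It was at 120.3 ± 41.5 CPM in ventral striatum and 139.5 ± 65.0 in dorsal striatum of males, and then in ascending order amygdala (287 ± 109.6), cortex (302 ± 40.4), prefrontal cortex (363 ± 90.1, n = 3) and ventral hippocampus (387 ± 89.1) and dorsal hippocampus (513 ± 80.9). The female order was the same at every place, from 105 ± 26.3 to 407 ± 128 CPM. The step between dorsal striatum and amygdala exceeded the SD in both tables. Septin5 shared its 3 highest and 2 lowest regions between the tables, from 82.4 ± 9.99 CPM in cortex to 38.3 ± 11.9 in ventral striatum in males and from 90.7 ± 14.4 to 41.99 ± 13.5 CPM in females.

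The other 5 genes had no extreme in ventral striatum. Nrip3 was lowest in dorsal striatum in both tables, at 87.4 ± 43.8 CPM in males and 97.0 ± 23.5 in females, and far higher in ventral hippocampus, at 230.1 ± 49.5 and 206 ± 93.1 CPM. Its highest male mean was in prefrontal cortex, at 239.7 ± 172.8 CPM (n = 3). Ralyl was also lowest in dorsal striatum, at 47.2 ± 17.1 and 43.6 ± 12.2 CPM, and highest in amygdala, at 82.8 ± 11.95 and 80.1 ± 8.38 CPM. Klhdc8a was highest in amygdala and lowest in dorsal hippocampus in both tables, at 33.9 ± 15.8 and 9.11 ± 3.79 CPM in males. Nefh was highest in dorsal hippocampus, at 89.6 ± 24.96 CPM in males and 111 ± 78.1 in females, the second value holding the outlying WT mouse 23. Frmpd1 kept a narrow span, with highest over lowest means of 1.95 in males and 1.73 in females.

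**Figure D3:**
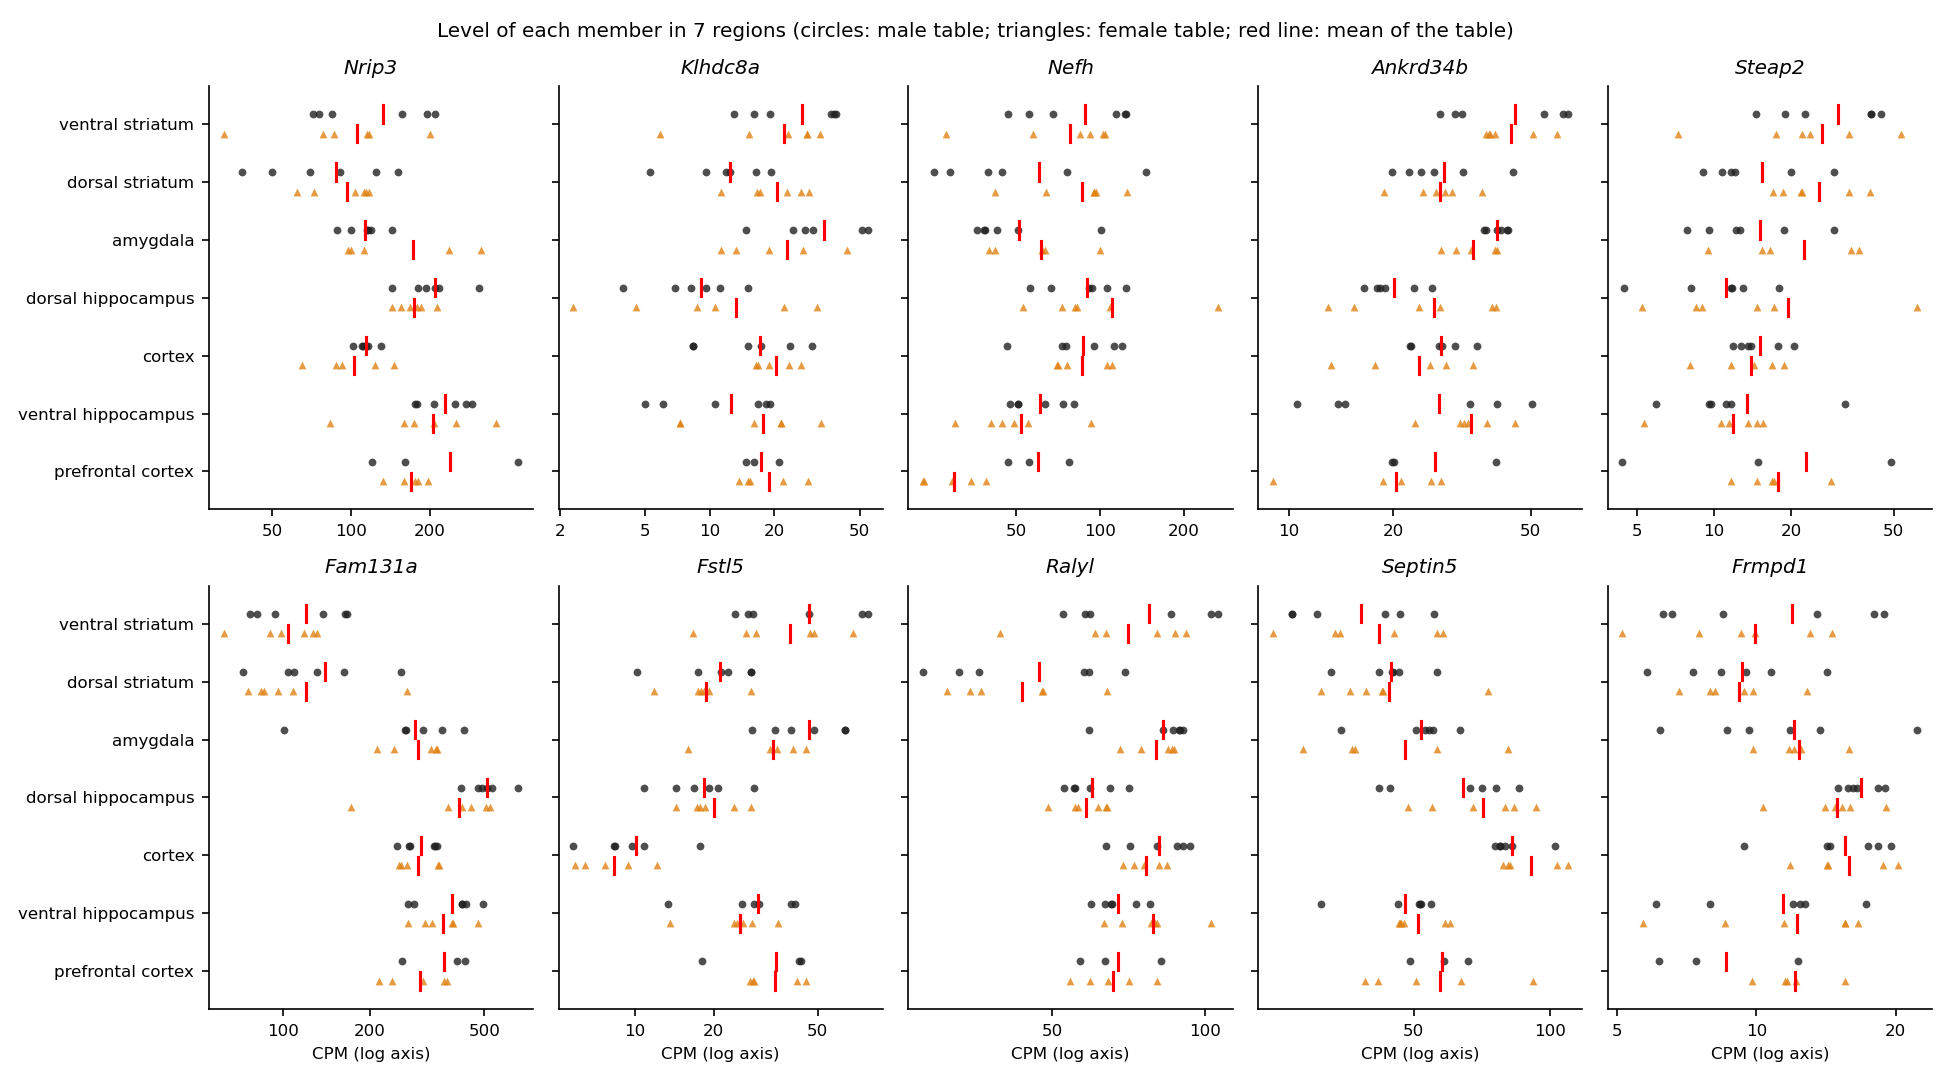
CPM (log axis) of each gene in every library of 7 regions, with the male table as black circles, the female table as orange triangles and the mean of each as a red line. Ankrd34b, Steap2 and Fstl5 have their highest means in ventral striatum, and Fam131a and Septin5 their lowest.

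Ventral striatum was tested against the 3 other deeply read regions in each table, with the genotypes averaged. These comparisons share the ventral striatum libraries, and the male ones include the libraries that chose the genes by genotype. A choice by small p favours a small spread within each genotype there. That spread enters the male tests, so the male calls are not free of the choice. Against dorsal striatum, 1 of 10 genes passed an adjusted p under 0.05 in each table, where 2.41% of all genes passed in males and 1.82% in females. At an unadjusted p under 0.05 the counts were 5 in males (16.4% of all genes) and 3 in females (21.5%). The male gene was Ankrd34b (0.54 ± 0.14 higher in ventral striatum on the log2 scale, adjusted p = 0.0462 in edgeR). With the mouse as a block, Fstl5 (0.98, adjusted p = 0.00985) and Ralyl (0.67, adjusted p = 0.0243) passed as well. The female gene was Ralyl (0.66 ± 0.16, adjusted p = 0.0479), which did not pass with the block (adjusted p = 0.0621).

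Both of those calls depended on which libraries entered. Ankrd34b did not pass without male mouse 1, 2, 3 or 12 (adjusted p = 0.124 to 0.290 in edgeR), nor Ralyl without female mouse 4, 5, 6 or 11 (0.155 to 0.262). Without the ventral striatum libraries of male mice 10 and 13 and female mouse 11, 0 genes of the list passed against dorsal striatum in either table. Without the dorsal striatum libraries of male mouse 10 and female mouse 23 instead, 4 passed in males and 1 in females. The shares of all genes that passed in these fits are not given here, so the counts are not read as a result about the list. Fstl5 differed by 0.93 ± 0.25 in males and 1.02 ± 0.29 in females (adjusted p = 0.0514 and 0.0699 in edgeR), and Ankrd34b by 0.65 ± 0.21 in females (adjusted p = 0.0930).

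Against amygdala, 3 of 10 genes passed in males, where 28.9% of all genes did, and 1 of 10 in females, where 26.4% did. At an unadjusted p under 0.05 there were 4 in males (40.4% of all genes) and 1 in females (38.5%). Neither count stands out from the share of all genes. Fam131a was lower in ventral striatum in both tables (-1.35 ± 0.28 and -1.42 ± 0.33, adjusted p = 0.00139 and 0.00427 in edgeR). Without male mouse 3, 1 gene passed in males. In males Steap2 was higher (0.96 ± 0.26, adjusted p = 0.0100) and Septin5 lower (-0.52 ± 0.16, adjusted p = 0.0183). The Septin5 call was lost without male mice 10 and 13 in ventral striatum (adjusted p = 0.0543). In females Nrip3 also passed with the mouse as a block (-0.65, adjusted p = 0.0288).

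Against dorsal hippocampus, 8 of 10 genes passed in males, where 39.2% of all genes did, and 5 of 10 in females, where 32.7% did. At an unadjusted p under 0.05 there were 8 in males (47.6% of all genes) and 6 in females (42.9%). In females 3 passed without mouse 4, 11 or 24 and 1 without mouse 5. Ankrd34b (1.00 ± 0.14 and 0.74 ± 0.21) and Fstl5 (1.1050 ± 0.25 and 0.95 ± 0.29) were higher in ventral striatum in males and females. Fam131a (-2.24 ± 0.28 and -1.98 ± 0.32), Septin5 (-0.85 ± 0.16 and -0.78 ± 0.28) and Frmpd1 (-0.70 ± 0.21 and -0.61 ± 0.20) were lower in both. The largest adjusted p among these 10 values was 0.0395, for Septin5 in females. Klhdc8a (1.43 ± 0.29), Steap2 (1.31 ± 0.27) and Nrip3 (-0.88 ± 0.26) passed in males. In females Nrip3 (-0.78 ± 0.30, adjusted p = 0.0550 in edgeR) passed with the mouse as a block (-0.91, adjusted p = 0.00201), with the DESeq2 Wald test (adjusted p = 0.0341) and with no filter (adjusted p = 0.0234). Without the low ventral striatum libraries 8 passed in males and 4 in females, with Fstl5 and Septin5 lost (adjusted p = 0.0594 and 0.0896) and Nrip3 gained in females.

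The content of striatal projection neurons was read as the mean log2 CPM of 10 marker genes, among them the dopamine receptor genes Drd1 and Drd2, Adora2a, Ppp1r1b and Penk. Across the 14 means of region and table, which share libraries and depth within a region, Fam131a ran against this list most closely (r = -0.97) and Steap2 with it (r = 0.76). Nrip3 (r = -0.74), Frmpd1 (r = -0.68) and Septin5 (r = -0.68) ran against it, Ankrd34b with it (r = 0.51), and Nefh showed no relation (r = -0.05). These are descriptions over regions and carry no test.

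Between mice, the relation was computed within the 6 libraries of the female ventral striatum, the male dorsal striatum and the female dorsal striatum, 30 relations in all, with two-sided exact permutation tests. None had a Benjamini-Hochberg adjusted p under 0.05 by Pearson's r or Spearman's rho, and 8 had an unadjusted p under 0.05 by Pearson's r. These were 2 of 10 in female ventral striatum (19.1% of all genes had such a p there), 3 in male dorsal striatum (19.5%) and 3 in female dorsal striatum (23.6%), counts that do not stand out from all genes. In the female ventral striatum, r was negative for the 8 genes that were lower in male KO mice (from -0.83 for Ankrd34b to -0.48 for Nefh; 51.3% of all genes were negative) and positive for Fam131a and Septin5, the 2 that were higher. Fam131a had r = 0.90 (exact p = 0.0181, adjusted p = 0.111) and rho = 0.71 (exact p = 0.136). Septin5 had r = 0.84 (exact p = 0.0222, adjusted p = 0.111) and rho = 0.83 (exact p = 0.0583). All 10 signs remained without WT mice 24 and 11, the libraries farthest from the median of the list, with r then at 0.70 for Fam131a and 0.35 for Septin5.

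Each dorsal striatum set held 1 library far below the others on the list (mouse 10 in males, mouse 23 in females). Ralyl ran against the list in male dorsal striatum (r = -0.80, exact p = 0.00278, adjusted p = 0.0833, rho = -0.94, exact p = 0.0167), and r was -0.99 without mice 12 and 10. Nrip3 had r = -0.77 there (exact p = 0.0264, adjusted p = 0.113, rho = -0.89, exact p = 0.0333) and -0.77 without those mice, and Nefh went from r = -0.87 (exact p = 0.0431, adjusted p = 0.157, rho = -0.60, exact p = 0.242) to -0.29. In female dorsal striatum, Fam131a had r = -0.99 (exact p = 0.00556, adjusted p = 0.0833, rho = -0.83, exact p = 0.0583). Septin5 had r = -0.96 (exact p = 0.0125, adjusted p = 0.111, rho = -0.94, exact p = 0.0167) and Ralyl r = -0.84 (exact p = 0.0208, adjusted p = 0.111, rho = -0.83, exact p = 0.0583). Without mice 6 and 23 those were -0.68, -0.47 and -0.42, so the size of the relation rests on these libraries. The r of Fam131a and Septin5 with the list was thus positive in the female ventral striatum and negative in the female dorsal striatum, a difference that was not tested.

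In the male ventral striatum the split by genotype fixes the members' values, so the list is set beside them with no relation computed. Its mean was 9.12, 9.27 and 6.45 in KO mice 1, 2 and 10 and 8.60, 8.20 and 5.51 in WT mice 3, 12 and 13. Each genotype had 1 low library.

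**Figure D4:**
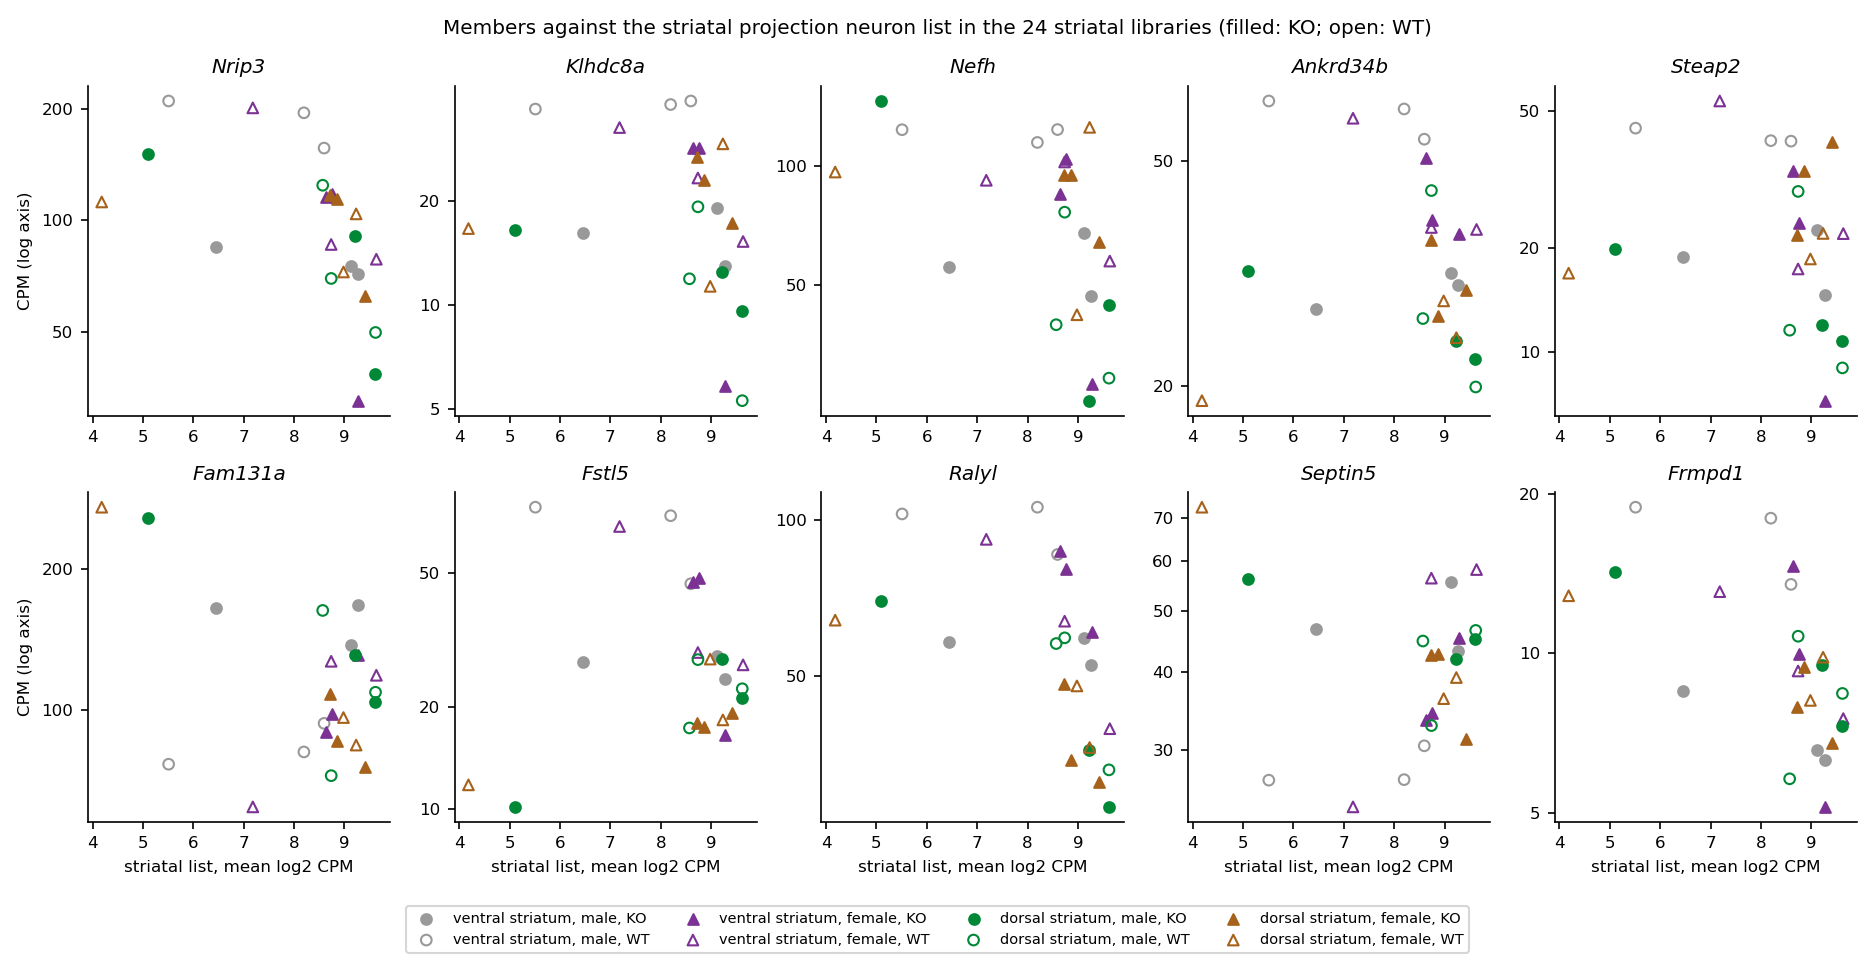
CPM of each gene (log axis) against the mean log2 CPM of the 10 striatal projection neuron genes in the 24 striatal libraries (filled, KO; open, WT; colour and shape, region and sex). The list was computed within each set of 6 libraries. The libraries at 4.18 and 5.10 are the dorsal striatum of female mouse 23 and male mouse 10, with the highest Fam131a of the dorsal striatum.

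The list of subcortical glutamatergic neurons, taken up after its values in the male ventral striatum were seen, was related to the genes in the same sets. Its score used 3 of the 4 genes, those above the count filter. In the female ventral striatum r was positive for 8 of 10 genes, all but Fam131a and Septin5, against 49.5% of all genes. An unadjusted p under 0.05 was reached by 6 of 10, against 9.79% of all genes, and 3 passed the adjustment over its 30 relations, at p-values that 0.654% of all genes reached. They were Klhdc8a (r = 0.97, exact p = 0.00278, adjusted p = 0.0417, rho = 0.94, exact p = 0.0167), Fstl5 (r = 0.95, exact p = 0.00417, adjusted p = 0.0417, rho = 0.94, exact p = 0.0167) and Nrip3 (r = 0.93, exact p = 0.00417, adjusted p = 0.0417, rho = 0.94, exact p = 0.0167). Without mice 24 and 6 their r was 0.89, 0.88 and 0.69, and 9 of 10 signs were kept. By rho 0 of 30 passed. The adjustment was made within this list, apart from the 30 relations of the striatal list, and none was made over both lists together. The 3 calls therefore hold within this list only. The summed list was at 94.6, 59.3 and 19.5 CPM in female KO mice 4, 5 and 6 and at 92.0, 35.2 and 26.7 CPM in WT mice 11, 23 and 24, so that KO and WT overlapped while mouse 6 was lowest. In dorsal striatum of either sex 0 of 20 relations reached an unadjusted p under 0.05, where 4.36% of all genes did in males and 2.42% in females. The list was led by Slc17a6 and Tcf7l2, and Lhx9 was at 0 to 2.16 CPM in female ventral striatum. Its genes did not move together there. Ramp3 was highest in KO mouse 6 (12.4 CPM), where Slc17a6 was at 1.95 CPM. It was lowest in WT mouse 11 (2.41 CPM), where Slc17a6 was at 56.2 CPM.

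Genes of the same families, and known partners, 46 in all, were followed as well. In the male ventral striatum 36 were tested, 0 had an adjusted p under 0.05 and 6 had an unadjusted p under 0.05, where 9.84% of all genes did in these libraries that chose the members. Their values are given as a description. The median log2 difference of the 36 was -0.04, against 0.02 for all genes. The log2 difference was 1.31 ± 0.50 for Stx1a, the syntaxin that binds septin 5, 0.60 ± 0.21 for Septin11, 0.82 ± 0.30 for the follistatin-like Fstl4 and 0.34 ± 0.14 for Fam131b. It was -1.02 ± 0.25 for Nrip2 and -0.71 ± 0.29 for Frmpd3. Of the other neurofilament genes, Nefl (-0.45 ± 0.22), Nefm (-0.47 ± 0.27) and Ina (-0.34 ± 0.17) did not reach an unadjusted p under 0.05. In the female ventral striatum 37 were tested and 0 had an unadjusted p under 0.05.

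Of these families 1 gene passed the adjustment between KO and WT in any region. Septin4 was higher in the female prefrontal cortex of KO mice (1.30 ± 0.25, adjusted p = 0.0325 in edgeR), where the oligodendrocyte and striatal lists were also higher. The WT group there had 2 libraries, and that of mouse 23 had 0 counts of Xist and 60 of Ddx3y, against its sex label. The Septin4 difference without that library is not given here. Between regions, Nefl was lower in ventral striatum than in amygdala (-0.83 ± 0.19 in males and -1.1001 ± 0.16 in females) and than in dorsal hippocampus (-1.03 ± 0.20 and -1.09 ± 0.15), each with an adjusted p under 0.05, while Nefh itself passed in none of these comparisons. Septin9 was lower in the same 4 comparisons (from -1.0997 ± 0.27 to -1.42 ± 0.27), alongside Septin5, which passed in 3 of them. Gpsm1, a partner of FRMPD1, was higher in ventral than in dorsal striatum of females (0.66 ± 0.16, adjusted p = 0.0460). Of 42 family genes tested, 1 was called higher and 1 lower there (1.82% of all genes were called), and 2 and 0 in males (2.41%). Against amygdala 4 were called higher and 7 lower in males (28.9%), and 0 and 6 in females (26.4%). Against dorsal hippocampus the counts were 4 and 8 in males (39.2%), and 2 and 10 in females (32.7%).

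Over the 72 libraries other than the 6 of the male ventral striatum, the gene most like each member was found among 10224 genes by Pearson's r of log2 CPM, as a description over libraries that share regions and depth. Fam131a was most like Neurod2, a transcription factor of cortical and hippocampal excitatory neurons (r = 0.94). Septin5 was most like Rbfox3, a general neuronal marker (r = 0.86), and Nefh like Vamp1, a vesicle protein of fast synapses (r = 0.86). The others were Fstl5 with Adgrg1 (r = 0.80), Nrip3 with Ppm1e (r = 0.77), Ralyl with Unc5d (r = 0.76), Steap2 with Etnppl (r = 0.70), Klhdc8a with Mir124-2hg (r = 0.69), Frmpd1 with Atp1b2 (r = 0.68) and Ankrd34b with Impact (r = 0.68). Among themselves the 10 genes were loosely related in these libraries. The 45 pairs had r from -0.63 (Fstl5 and Septin5) to 0.53 (Fam131a and Septin5), with a median of 0.14 and 29 of 45 above 0.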

How the data were processed

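The authors deposited 2 tables of raw counts per gene symbol, 1 for male and 1 for female mice. Per the submitters' processing notes the tools were STAR 2.5.2a, SAMtools 1.1, HTSeq 0.6.1, DESeq2 and R 4.0.2, with GRCm38 and mm10 named as builds, and their settings are not given in the sources used here. Per the labels' protocols, poly(A) RNA from 300 ng of total RNA was made into libraries with a kit that does not mark strand. Count columns were matched to samples by name. Counts were tested with edgeR 4.0.16 in R 4.3.3 (quasi-likelihood test, TMM scaling, filterByExpr with a minimum count of 10 and a total of 15) and adjusted by Benjamini-Hochberg over all genes of each comparison, 1 fit per region and sex, and 1 fit per table for the regions. CPM is the count over the library total. Alternatives were DESeq2 1.42.0, DESeq2 size factors, no filter on low counts, the mouse as a replicate block and leaving out libraries. For KO against WT in ventral striatum, offsets for exon length and for G and C content were a further alternative. Across genes, the log2 differences there followed G and C content with rho = 0.146 in males and -0.145 in females. With the offsets rho was 0.0063 and -0.0063. The 10 genes were in the fits with offsets as well, but their differences from those fits are not given here. The part of this trend in their differences was not tested. Relations used log2 CPM with a prior count of 2 and two-sided exact permutation tests. The same relations were computed for all genes outside the marker list, as a background. The fits were tested on simulated data.

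The 10 genes, their families and the marker lists were chosen with earlier results of these data known. Genes named were the 10, the families and partners listed, the genes ranked just after the last of the 10, and the gene most like each by Pearson's r among those with a mean of at least 10 CPM. In the comparison of regions, numbers mark the same animal per the labels. Deviations of ventral and dorsal striatum of 1 mouse correlated at -0.10 to 0.48 in males and -0.02 to 0.27 in females over 6 pairs each. Leaving out libraries low in striatal transcripts, and relating the genes to the subcortical list, were chosen after seeing the data. Replicates are separate mice.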

Additional observations from a re-analysis of the deposited data

Results flagged for a closer look

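Nefh differed between KO and WT in opposite directions in ventral hippocampus of the 2 sexes, with every male KO library above every male WT library and every female KO library below every female WT library. The male log2 difference exceeded the female one by 1.25, and this difference was not tested. In males Nefh was lower in KO in ventral striatum and higher in KO in ventral hippocampus, again with no overlap in either region. Ventral striatum less ventral hippocampus came to -1.57 on the log2 scale, which was not tested either, and the first of these regions chose the gene.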

How the results depend on the processing

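In the male ventral striatum the number of the 10 genes with an adjusted p under 0.05 was 0 with edgeR, 9 with no filter on low counts, 10 with the DESeq2 Wald test and 0 leaving out any 1 mouse. Of the 11 smallest p after Acss2, 10 belonged to the list, 5 with no filter, 1 without mice 10 and 13 together, and 2 to 7 leaving out 1 mouse. With no filter 1 gene was called in male dorsal hippocampus and 1 in female ventral hippocampus. Against dorsal striatum, males had 2 genes with DESeq2 size factors, 5 with no filter, 4 with the DESeq2 Wald test, 3 with the replicate block, 4 without the low dorsal striatum library, 0 without the low ventral striatum libraries and 0 to 2 leaving out 1 mouse. Females had 2 with no filter, 3 with the DESeq2 Wald test, 0 with the replicate block, 0 without the low ventral striatum library and 0 to 3 leaving out 1 mouse. Against amygdala the replicate block gave 2 in females, and leaving out 1 mouse gave 1 to 3 in males and 1 each time in females. Against dorsal hippocampus leaving out 1 mouse gave 6 to 8 in males and 1 to 6 in females. Outside the male ventral striatum, the shares of all genes in these alternatives are not given here, so the counts are not read as a result about the list. With the subcortical list 3 relations passed an adjustment made within that list alone.

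No paired analysis was possible for KO against WT because they are different mice. Directions, read where a difference exceeded its SE, turned in 9 of 1150 alternatives between KO and WT, all of them leaving out 1 mouse. Over the mice left out, log2 differences ran from -0.98 to 0.056 for Steap2 in female ventral striatum (turned without mouse 11), from -1.06 to 0.0049 for Fam131a and -0.59 to 0.053 for Septin5 in female dorsal striatum (mouse 23), and from -1.05 to 0.15 for Septin5 in female amygdala (mouse 23). They ran from -0.040 to 0.61 for Fstl5 in male dorsal hippocampus (mouse 1), from -0.95 to 0.35 for Nefh and -1.33 to 0.89 for Steap2 in female dorsal hippocampus (mouse 23), and from -0.20 to 1.28 for Ankrd34b and -0.87 to 0.29 for Septin5 in female prefrontal cortex (mouse 11). The cause was not tested. Of these alternatives 1095 kept direction and side of the threshold, as did 613 of 680 between regions. In the shallower regions a listed gene could have as few as 5 counts in a library, which limits the differences detectable there.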
